A study of Homo sapiens with 6 samples.

Results

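The genes described here are 201 of the 1769 brightest genes of a breast cancer cell line, those whose signal on 1 array, siPGC1alpha replicate 1, was not below their mean on the control arrays. Bright genes are the top 10% of 17687 genes by the mean of the 3 sicontrol arrays, which set a lower limit of 9.88 on the log2 scale. On that array the other 1568 bright genes lay below their control mean, so that the kept genes were 11.4% of the bright genes. The members were thus chosen by their values on that array and on the controls, so these values are a description with no test. The measurements the choice did not use are siPGC1alpha replicates 2 and 3 and the sequences of the promoters.

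The arrays measured RNA of 4175 cells, a variant of the MDA-MB-231 line that was selected for growth in the lung. In the siPGC1alpha samples an siRNA was directed at PPARGC1A, the gene of PGC-1alpha, and in the sicontrol samples a control siRNA was used, with 3 arrays in each group. Cells were treated 24 hours after plating and for 48 hours, as the series design states, and all samples share the cell line and the labelling of 10 ng of RNA with a low-input kit. The labels do not say whether replicates are separate cultures. A p-value below therefore speaks of the spread between these 6 samples, and that spread may be technical.

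PGC-1alpha is a transcriptional coactivator that joins nuclear receptors and other factors to the transcription machinery and is known to raise the expression of genes for mitochondria and respiration. Highly abundant transcripts of a dividing cell line mostly encode the machinery common to all cells, namely ribosomes and translation factors, the actin and tubulin cytoskeleton, RNA-binding proteins, proteasomes, chaperones and the enzymes of energy metabolism. A microarray reads each of them through its own probes, so brightness orders signals of probe sets and is not an amount of transcript that can be set against that of another gene.

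PPARGC1A itself, read by the probe set TC0400010242.hg.1, had a log2 signal of 7.95, 6.52 and 6.47 on siPGC1alpha replicates 1, 2 and 3, against 6.45, 6.49 and 6.49 on sicontrol replicates 1, 2 and 3. Replicate 1 was far above every control array, replicate 2 slightly above them, and replicate 3 lay within their range. Without replicate 1 the difference was 0.02 ± 0.071 (SE of the fit, limma, adjusted p = 0.9998; 95% interval -0.15 to 0.19).

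Replicate 1 stood apart from the 5 other arrays across all genes. Its correlation with each of them over the 17687 genes was 0.585 to 0.604, against 0.995 to 0.996 among the others, and its values had a standard deviation over genes of 1.66 against 2.06 to 2.09. Dim genes lay above and bright genes below their control means on it: with all genes in 10 bins of control mean, the share not below was 97.5% in the dimmest bin, 75.5% in the fifth, 20.8% in the ninth and 11.4% in the brightest, and 61.8% over all genes. Of 7 bright markers of this line, SPARC and IL11 were kept, while VIM, AXL, CAV1 and CD44 lay below their control means. The 24 markers of leukocytes, endothelium and other foreign cell types and the 21 luminal markers that were measured held no bright gene. All 24 foreign markers and 19 of the 21 luminal ones were above their control mean on replicate 1, with a median of 7.32 there for the foreign markers against 5.90 to 6.09 on the 5 other arrays. The part of these shifts in the results below was not tested, and in bulk RNA fewer cells of a type and less RNA per cell cannot be told apart.

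Among all bright genes, replicate 1 was below the control mean by over 4 on the log2 scale for 304 genes, by 2 to 4 for 629, by 1 to 2 for 366 and by up to 1 for 269. It was above by up to 1 for 163 genes and by 1 or more for 38. The kept genes thus form the upper end of a broad spread rather than a separate cluster, as the plot of replicate 1 against the control mean shows. Their median difference was 0.60 (quartiles 0.32 and 0.89), against -2.38 for the other bright genes and 0.61 for all genes.

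**Figure D1:**
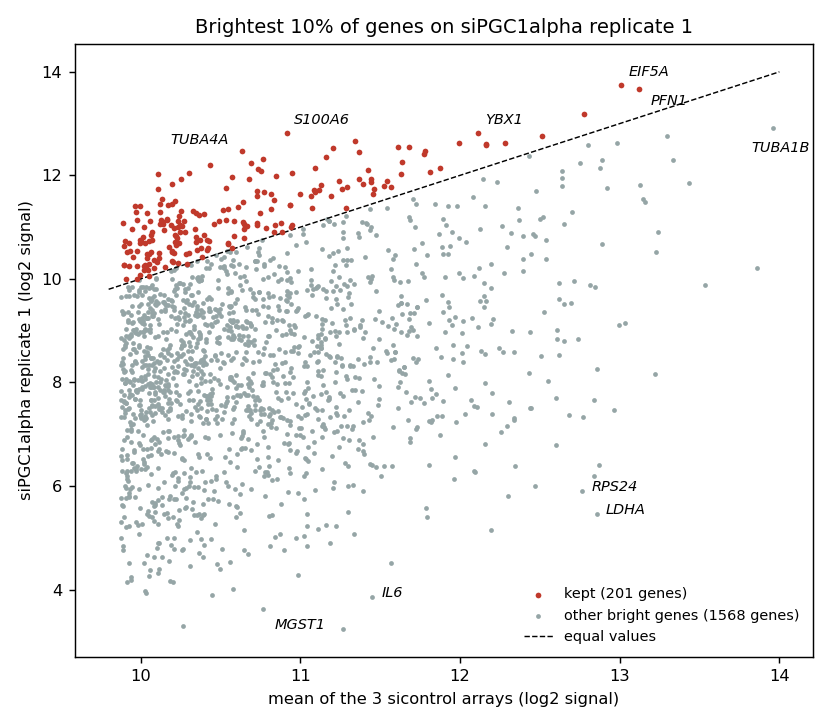
Each point is 1 of the 1769 bright genes, with the mean of the 3 sicontrol arrays on the horizontal axis and siPGC1alpha replicate 1 on the vertical axis, both as log2 signal, and the dashed line marks equal values. The 201 kept genes lie on or above the line by rule, and the 1568 others spread below it by up to 8.03.

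The promoters of 4 bright genes are shown as examples from both sides of the comparison. PFN1 and S100A6 were kept, the first as the kept gene with the highest control mean and the second as one of the largest gains on replicate 1, while IL6 and APLP2 were among the 10 bright genes furthest below the controls there. The windows run 5′ to 3′ on the gene's strand around its start (RefSeq, GRCh38.p14) at chr17:4948481-4948780 on the minus strand for PFN1, chr1:153535942-153536241 on the minus strand for S100A6, chr7:22726950-22727249 on the plus strand for IL6 and chr11:130070318-130070617 on the plus strand for APLP2. Capitals mark the TATA box TATAAA, the CCAAT box CCAAT and the GC box CCGCCC on either strand, where neighbouring matches can overlap.
PFN1: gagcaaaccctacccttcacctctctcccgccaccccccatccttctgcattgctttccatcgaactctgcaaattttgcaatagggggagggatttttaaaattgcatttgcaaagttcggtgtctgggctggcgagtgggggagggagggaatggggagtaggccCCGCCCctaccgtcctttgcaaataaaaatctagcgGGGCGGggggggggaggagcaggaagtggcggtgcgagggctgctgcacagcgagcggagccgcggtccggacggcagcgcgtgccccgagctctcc
S100A6: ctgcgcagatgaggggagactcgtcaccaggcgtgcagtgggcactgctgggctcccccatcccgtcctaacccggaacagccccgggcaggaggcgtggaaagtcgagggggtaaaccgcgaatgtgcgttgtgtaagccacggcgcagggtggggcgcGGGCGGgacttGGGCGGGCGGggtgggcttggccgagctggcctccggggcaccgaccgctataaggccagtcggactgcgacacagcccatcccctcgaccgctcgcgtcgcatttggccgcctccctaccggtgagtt
IL6: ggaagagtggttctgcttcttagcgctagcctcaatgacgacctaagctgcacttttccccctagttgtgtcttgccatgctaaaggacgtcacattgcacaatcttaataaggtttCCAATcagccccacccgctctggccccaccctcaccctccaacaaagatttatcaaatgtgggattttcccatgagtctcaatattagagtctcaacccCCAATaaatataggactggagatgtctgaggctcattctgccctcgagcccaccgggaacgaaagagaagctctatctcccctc
APLP2: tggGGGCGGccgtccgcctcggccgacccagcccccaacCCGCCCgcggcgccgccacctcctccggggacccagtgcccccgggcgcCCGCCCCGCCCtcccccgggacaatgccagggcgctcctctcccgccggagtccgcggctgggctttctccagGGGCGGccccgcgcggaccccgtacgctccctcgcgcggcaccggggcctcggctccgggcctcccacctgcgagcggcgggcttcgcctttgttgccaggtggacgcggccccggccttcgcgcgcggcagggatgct
The window of PFN1 held 19 CpG and that of S100A6 held 31, and both have GC boxes. The window of IL6 held 7 CpG, no GC box and 2 CCAAT boxes. The window of APLP2, a gene that was not kept, was the richest of the 4 with 44 CpG and 5 GC boxes, so these windows do not divide the kept from the other genes.

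Transcripts of the cytoskeleton, cell adhesion and matrix formed the largest role group among the kept genes, with 30 members when the 201 were sorted by known function after their values had been seen. The other bright genes were not sorted by role. No share of the bright genes can therefore be set beside this count or those of the role groups below, which may mirror the make-up of all bright genes. PFN1, which encodes profilin 1, the protein that loads actin with ATP and feeds it to growing filaments, had signals of 13.67, 13.15 and 13.10 on siPGC1alpha replicates 1, 2 and 3, against 13.05, 13.13 and 13.20 on the sicontrol arrays. Replicate 1 was the highest of the 6 and replicates 2 and 3 lay within the control range. ACTN1, an actin cross-linker, read 12.62, 12.25 and 12.28 on the siPGC1alpha arrays and 12.22, 12.35 and 12.27 on the sicontrol arrays. ITGB1, the integrin beta 1 chain that binds matrix, read 12.59, 12.16 and 12.11 on the siPGC1alpha arrays and 12.22, 12.16 and 12.10 on the sicontrol arrays. In both genes replicate 1 alone left the range of the other arrays. TMSB4X, which encodes the actin-sequestering thymosin beta 4, was kept with a difference of 0.27, but its probes may also read near-identical copies. The other kept genes of this group include the myosin light chain MYL6 at 0.34, the membrane-to-actin linker MSN at 1.32, the adherens junction protein CTNNA1 at 1.19 and the integrin-bound kinase ILK at 0.48.

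Several bright partners of these proteins were not kept, as held for 88.6% of all bright genes. CFL1, which encodes the filament-severing protein cofilin 1, read 8.53, 12.58 and 12.59 on the siPGC1alpha arrays and 12.63, 12.59 and 12.64 on the sicontrol arrays. ACTG1, cytoplasmic gamma actin, lay 1.67 below its control mean on replicate 1, TMSB10 lay 1.33 below and TAGLN2 lay 1.87 below. None of the 5 bright genes of the ARP2/3 complex, which branches actin filaments, was kept. Over the 31 bright genes of an actin list, 6 were kept (19.4%), beside 11.4% of all bright genes. The list's median difference on replicate 1 was -1.54, beside -2.13 for all bright genes.

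Some bright tubulins and keratins were kept and others were not. With 88.6% of all bright genes below their control means, a family with a kept gene will often hold others below. TUBA4A, an alpha tubulin, read 12.47, 10.63 and 10.55 on the siPGC1alpha arrays and 10.53, 10.68 and 10.70 on the sicontrol arrays, a 3.57-fold higher signal on replicate 1. Of the 7 bright alpha and beta tubulins, TUBA4A and TUBB6 were kept, at 1.84 and 0.79, beside 11.4% of all bright genes. TUBA1B, TUBB and TUBB4B lay 1.05, 2.22 and 3.90 below their control means. KRT8 read 12.55, 11.72 and 11.66 on the siPGC1alpha arrays and 11.55, 11.59 and 11.69 on the sicontrol arrays. KRT18, the type I keratin that pairs with KRT8 in filaments of simple epithelia, read 7.33, 11.22 and 11.14 on the siPGC1alpha arrays and 11.18, 11.21 and 11.18 on the sicontrol arrays. The pair of transcripts, whose proteins assemble with each other, therefore lay on opposite sides on replicate 1, by 0.93 above and 3.86 below. KRT18, TUBB4B and TUBB6 were picked out after their values had been seen, as were the families and paralogue pairs named below.

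**Figure D2:**
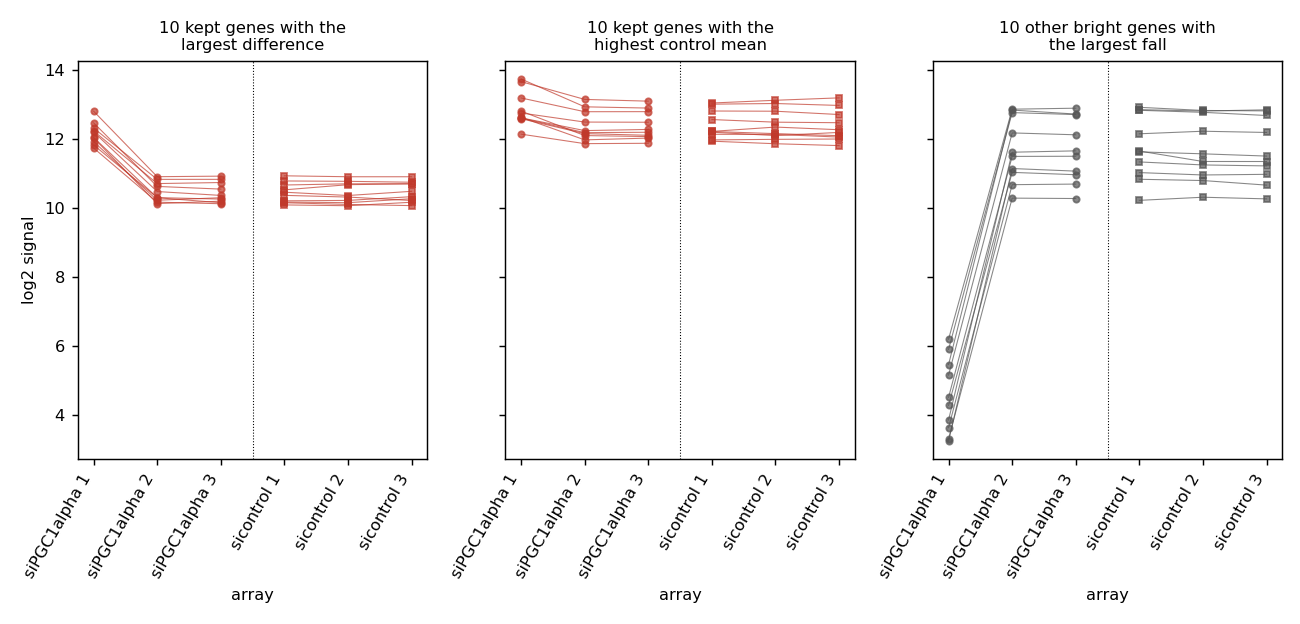
Log2 signal of the named bright genes on each array, the 3 siPGC1alpha arrays to the left of the dotted line and the 3 sicontrol arrays to the right, with a line joining the values of 1 gene within a group. From left to right, the panels hold the 10 kept genes with the largest difference, the 10 kept genes with the highest control mean and the 10 other bright genes with the largest loss, and in each panel replicate 1 is the array furthest from the controls.

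Translation and the ribosome supplied 18 kept genes, with a median difference of 0.51. EIF5A, a factor that helps ribosomes through difficult peptide bonds, read 13.75, 12.94 and 12.90 on the siPGC1alpha arrays and 13.01, 13.03 and 12.98 on the sicontrol arrays. EIF1, which guards the choice of start codon, read 13.19, 12.80 and 12.80 on the siPGC1alpha arrays and 12.82, 12.81 and 12.71 on the sicontrol arrays. Replicate 1 was the highest array in both, while EIF5A on replicates 2 and 3 lay below all 3 controls without passing a test. Also kept were EIF5 at 0.87, EIF3K at 0.68, and 3 proteins that act where the mRNA cap is bound, the cap-binding EIF4E at 0.57, its scaffold EIF4G1 at 0.68 and EIF4B at 0.08. Of 28 bright genes with an initiation factor symbol, 7 were kept (25%), beside 11.4% of all bright genes. EIF3A, the large subunit of EIF3, lay 4.71 below, EIF3E 3.49 below and EIF6 2.25 below. The elongation factor EEF1A1 lay 0.54 below. CAPRIN1 and HDLBP, both mRNA-binding proteins, were kept at 0.45 and 0.64.

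Of 47 bright genes for cytosolic ribosomal proteins, 2 were kept (4.26%), beside 11.4% of all bright genes. RPL31 read 11.77, 11.65 and 11.63 on the siPGC1alpha arrays and 11.57, 11.53 and 11.59 on the sicontrol arrays, so all siPGC1alpha arrays were above all controls, by 0.21 on replicate 1 and by 0.07 on replicates 2 and 3 (limma, adjusted p = 0.9998). FAU, whose product is a ubiquitin-like protein fused to ribosomal protein S30, read 11.99, 10.91 and 10.88 on the siPGC1alpha arrays and 10.80, 10.86 and 10.90 on the sicontrol arrays. The list as a whole had a median difference on replicate 1 of -2.70. RPS24 lay 6.87 below its control mean and RPL38 lay 5.05 below. Subunits of the same particle were thus read on replicate 1 from 6.87 below to 1.14 above their control means.

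RNA-binding and splicing proteins supplied 29 kept genes, with a median of 0.63. YBX1, a cold-shock domain protein that packages mRNA, read 12.81, 12.10 and 12.07 on the siPGC1alpha arrays and 12.14, 12.14 and 12.06 on the sicontrol arrays. Only replicate 1 was outside the control range there. Further kept genes of this group were the splicing regulators QKI at 1.32, TARDBP at 0.97, CELF1 at 0.62, DDX17 at 0.32 and MBNL1 at 0.42, and the 3′ splice site factor U2AF2 at 0.63. HNRNPA1, HNRNPU and SF3B4 were not kept and lay 3.60, 1.68 and 2.97 below. Of 36 bright genes in a list of such proteins, 6 were kept (16.7%), beside 11.4% of all bright genes. RBM14 and its readthrough RBM14-RBM4 were both kept and overlap, so their probes may read common RNA. SNRPD1, a core protein of the spliceosome's small nuclear particles, was kept at 0.75, whereas SNRPB2, a protein of the U2 particle, lay 6.97 below.

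Membrane traffic supplied 28 kept genes, among them small GTPases that steer vesicles. RAB5B, a GTPase of early endosomes, read 11.74, 10.17 and 10.12 on the siPGC1alpha arrays and 10.09, 10.07 and 10.17 on the sicontrol arrays. Its closest relatives RAB5A and RAB5C lay 2.11 and 1.27 below their control means. Of 14 bright RAB genes, 6 were kept (42.9%), beside 11.4% of all bright genes. The other bright RAB genes included RAB7A of late endosomes, 2.83 below. ARF5 was kept at 1.06 while ARF4 lay 4.17 below. RHOA and RAC1, which organise actin, lay 3.99 and 3.06 below. The Golgi protein GOLPH3 was kept at 1.41 and ERGIC1, of the compartment between endoplasmic reticulum and Golgi, at 1.24. In contrast, 1 of 32 bright genes in a list of the secretory pathway was kept (3.1%), namely ARF5. STT3A and RPN2, subunits of the enzyme that attaches sugars to new proteins, lay 2.69 and 3.76 below.

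Protein breakdown, the proton pump and lysosomes supplied 17 kept genes. OTUB1, a deubiquitinating enzyme, read 12.21, 10.48 and 10.37 on the siPGC1alpha arrays and 10.46, 10.36 and 10.48 on the sicontrol arrays. The proteasome ATPase PSMC4 was kept at 1.32 and the catalytic subunit PSMB6 at 0.04. They were the only 2 kept of 24 bright genes in the proteasome list (8.33%), beside 11.4% of all bright genes. Of 15 bright lysosomal and proton pump genes, 5 were kept (33.3%). They included ATP6V0D1 at 0.53, ATP6V1G1 at 0.61, the cathepsin CTSZ at 0.45 and GABARAP, which coats autophagosomes, at 0.20. The pump subunit ATP6V0E1 lay 4.69 below and the cathepsin CTSC 2.97 below. APH1A and PSENEN, both subunits of gamma-secretase, were kept at 0.82 and 0.41, the 2 bright genes of that complex.

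Mitochondrial and metabolic proteins, the best known targets of PGC-1alpha, supplied 24 kept genes but none from the respiratory chain list. SLC25A4, the adenine nucleotide carrier of heart and muscle, read 11.93, 10.23 and 10.30 on the siPGC1alpha arrays and 10.21, 10.22 and 10.33 on the sicontrol arrays. Its relative SLC25A5 was kept at 0.64, and since the pair are close paralogues, the split of signal between them is uncertain. The same holds for the metallothionein MT1M, the histone H4C11 and the actin ACTA1, which were also kept. GOT2, a mitochondrial aminotransferase, was kept at 0.91, the citrate cycle subunit IDH3B at 0.85 and ATP5IF1, an inhibitor of the ATP synthase, at 0.94. Of 33 bright genes of oxidative phosphorylation 0 were kept (median -2.75), and of 13 bright glycolytic genes 0 (median -2.29). Of all bright genes 11.4% were kept (median -2.13). LDHA, lactate dehydrogenase A, read 5.46, 12.84 and 12.73 on the siPGC1alpha arrays and 12.92, 12.83 and 12.82 on the sicontrol arrays. GAPDH and ENO1 lay 3.65 and 4.60 below.

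Transcription and chromatin proteins supplied 27 kept genes and signalling proteins 17. ZNF706, a small zinc finger protein, had the largest gain, with signals of 12.04, 10.13 and 10.20 on the siPGC1alpha arrays and 10.15, 10.10 and 10.07 on the sicontrol arrays. S100A6, a calcium-binding protein read by the probe set TC0100015864.hg.1, was next with 12.81, 10.91 and 10.93 on the siPGC1alpha arrays and 10.94, 10.91 and 10.91 on the sicontrol arrays, 3.71-fold higher on replicate 1. S100A11 of the same family read 7.33, 12.76 and 12.80 on the siPGC1alpha arrays and 12.77, 12.77 and 12.78 on the sicontrol arrays. Other kept genes were RPS6KB1, the S6 kinase downstream of mTOR, at 1.63, the tetraspanin CD81 at 1.54, the cyclin-dependent kinase CDK16 at 1.24, SMAD3, which carries TGF-beta signals to the nucleus, at 0.54 and SOX9 at 0.66. PRKAA1, the catalytic subunit of AMP-activated kinase, an energy sensor that acts on PGC-1alpha, was kept at 0.20. Of the 5 bright 14-3-3 adaptors, YWHAZ and YWHAE were kept at 0.25 and 0.27, beside 11.4% kept of all bright genes. YWHAQ lay 3.74 below.

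Of the bright genes in the lists, 3 of 21 for matrix and secreted proteins and 1 of 7 cytokines and chemokines were kept, beside 11.4% of all bright genes. SPARC, a matrix glycoprotein and a marker of this line, read 12.46, 11.35 and 11.27 on the siPGC1alpha arrays and 11.34, 11.38 and 11.39 on the sicontrol arrays. IL11 was kept at 0.44, the matricellular protein CCN1 at 0.64 and the laminin chain LAMC1 at 0.18. IL6, an inflammatory cytokine, read 3.85, 11.62 and 11.66 on the siPGC1alpha arrays and 11.65, 11.35 and 11.35 on the sicontrol arrays, a 195-fold lower signal on replicate 1. IL1B lay 6.65 below. MGST1, a membrane-bound glutathione transferase, had the largest loss, 8.03. None of the 28 bright genes of G2 and M phase (median -4.07), the 20 of DNA replication (median -3.08), the 27 chaperones (median -3.20) or the 20 of iron and redox (median -3.11) was kept; PLK1, a kinase of mitosis, lay 4.64 below and the chaperone CALR 4.93 below.

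**Figure D3:**
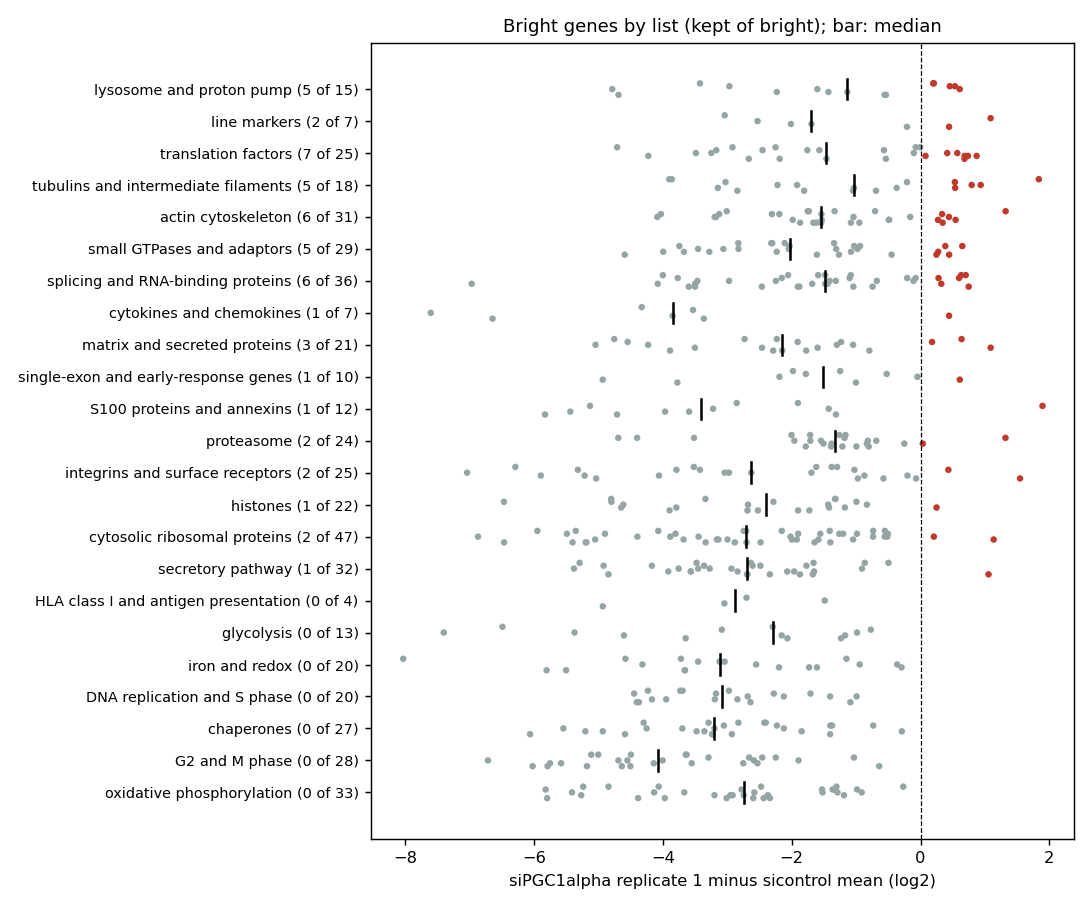
Each point is a bright gene of 1 gene list, with siPGC1alpha replicate 1 minus the sicontrol mean on the log2 scale on the horizontal axis, a bar at each list's median and a dashed line at 0. Labels give how many of a list's bright genes were kept, from 5 of 15 for the lysosome and proton pump to 0 of 33 for oxidative phosphorylation, beside 11.4% of all bright genes.

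The kept genes include 3 named for proteins of skin and hair. LCE1E and LCE1C encode late cornified envelope proteins of the outer skin, and KRTAP2-4 a protein of the hair shaft. LCE1E read 12.53, 11.25 and 11.13 on the siPGC1alpha arrays and 11.09, 11.28 and 11.24 on the sicontrol arrays, and LCE1C read 11.42, 9.81 and 9.86 on the siPGC1alpha arrays and 9.84, 10.03 and 10.03 on the sicontrol arrays. Their place among the bright genes rests on the control arrays and not on replicate 1. The labels give no detection call, and both belong to a cluster of closely related genes.

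The genes nearest to the threshold show how the line was drawn. RPF1, RBM42, TAF10, UBE2Z and GLG1 were kept with differences of 0.0017 to 0.02, and IPO9, ADISSP, EIF3I, ARHGAP1 and ACD were left out with differences of -0.0095 to -0.0021. Within 1 control SD of the threshold lay 9 kept genes and 19 others. For these genes the distance to the threshold was smaller than the spread between control arrays.

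On siPGC1alpha replicates 2 and 3, which the choice did not use, the kept genes lay close to the controls. Their medians were 11.10, 10.40 and 10.38 on siPGC1alpha replicates 1, 2 and 3, and 10.37, 10.35 and 10.40 on the sicontrol arrays. For the other bright genes the medians were 8.33, 10.58 and 10.59 on the siPGC1alpha arrays and 10.57, 10.58 and 10.58 on the sicontrol arrays. The mean of replicates 2 and 3 minus the control mean ranged from -0.20 to 0.24 over the kept genes, with a median of 0.0099, against 0.016 for the other bright genes and 0.0080 for all genes. It was above 0 for 119 kept genes and below 0 for 82. The control arrays entered the choice through their mean, so only the siPGC1alpha side of this comparison is free of it.

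With limma on these 5 arrays, 0 of the 201 kept genes differed at an adjusted p under 0.05, and 0% of all 17687 genes did. At an unadjusted p under 0.05 there were 0 kept genes higher and 0 lower, against 4 and 1 of the other bright genes, while 2.11% of all genes were higher and 2.34% lower. This fit draws the variance of each gene towards a value common to all genes. The median control SD was 0.053 for bright genes and 0.099 for all genes. Small p-values can therefore be rarer among bright genes, and the part of this in these counts was not tested. The 95% interval of the difference, not adjusted over genes, had a median half-width of 0.18. It lay within a 2-fold change either way for all 201 genes. The lowest unadjusted p among them was 0.0573, for SNRPD1, which read 10.64, 9.68 and 9.70 on the siPGC1alpha arrays and 9.97, 9.95 and 9.77 on the sicontrol arrays (difference -0.20 ± 0.089, SE, adjusted p = 0.9998). RAB35, a GTPase of endosomal recycling, had the lowest p among those higher, with 10.28, 10.19 and 10.18 on the siPGC1alpha arrays and 10.05, 9.96 and 10.08 on the sicontrol arrays (difference 0.16 ± 0.075, SE, adjusted p = 0.9998). In both genes replicates 2 and 3 lay outside the control range. Such groups without overlap were found above the controls for 31 kept genes (15.4%), against 280 of the others (17.9%) and 11.3% of all genes, and below the controls for 18 kept genes (8.96%), against 69 of the others (4.40%) and 8.42% of all genes. With all 6 arrays, 0 kept genes were called and 0% of all genes; that fit uses the replicate that chose the genes.

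**Figure D4:**
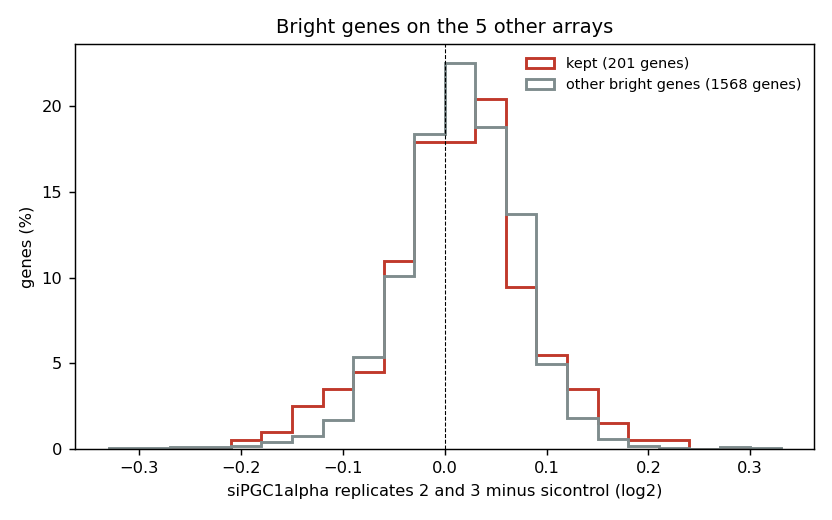
Share of genes in percent by the mean of siPGC1alpha replicates 2 and 3 minus the sicontrol mean on the log2 scale, for the 201 kept genes and the 1568 other bright genes. Both outlines centre near 0, and the kept genes stay between -0.20 and 0.24.

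By rank, all 201 kept genes were among the 1769 brightest genes of replicate 1, and the lowest stood at its 96.0th percentile. The rule fixed this place, since a kept gene had to read at least 9.88 on replicate 1. COX8A, which was not kept, read 9.82 there and already stood at the 94.9th percentile. The 1769 brightest genes of replicate 1 held 615 of the 1769 genes bright in the controls (34.8%). On siPGC1alpha replicates 2 and 3, 1721 (97.3%) and 1710 (96.7%) of the brightest genes were also bright in the controls, and 194 and 191 of the kept genes were among them. The other bright genes had a median percentile of 73.3 on replicate 1.

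The kept genes had a median control mean of 10.37 against 10.58 for the other bright genes, a value that the choice itself used. The spread between control arrays was alike, with a median SD of 0.056 for kept genes and 0.052 for the others. Of the properties that the choice did not use, promoter composition differed modestly and did not separate the kept genes from the others.

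A promoter window was found in the RefSeq table for 175 kept genes, 1332 other bright genes and 14250 of all genes. Its median GC content was 66.7% for kept genes, 64.7% for the others and 63.0% for all genes, and its median CpG count was 29, 27 and 22 in the same order. In 4 bins of GC content, 10.9% of bright genes were kept in the lowest, 9.02% in the second and 13.5% in the highest. In 4 bins of CpG count from lowest to highest, 9.84%, 9.55%, 12.5% and 14.6% were kept. The gap between the highest and lowest CpG bins, 4.75 percentage points, was 0.78 when kept meant 0.5 above the control mean or more, and the gap in GC content, 2.62 points, was 0.74 when kept was judged by percentile. The GC box CCGCCC, to which SP1-type factors are known to bind, was found on either strand in 78.3% of kept windows, 70.0% of other bright windows, 59.5% of all genes' windows and 44.6% of all windows in the table. The letters CCAAT were in 36.0% of kept windows, 42.4% of the others, 36.4% of all genes and 35.7% of all windows. TATAAA was in 5.71%, 7.81%, 9.41% and 11.95% of these sets, and the run CTTTC in 58.3%, 53.3%, 52.1% and 54.9%. A match describes letters in the window and not a bound site. Over bright genes, Spearman's rho of the difference on replicate 1 was 0.076 with GC content, 0.055 with CpG count and 0.063 with the difference on replicates 2 and 3; these are descriptions over genes that share arrays, and all are weak.

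**Figure D5:**
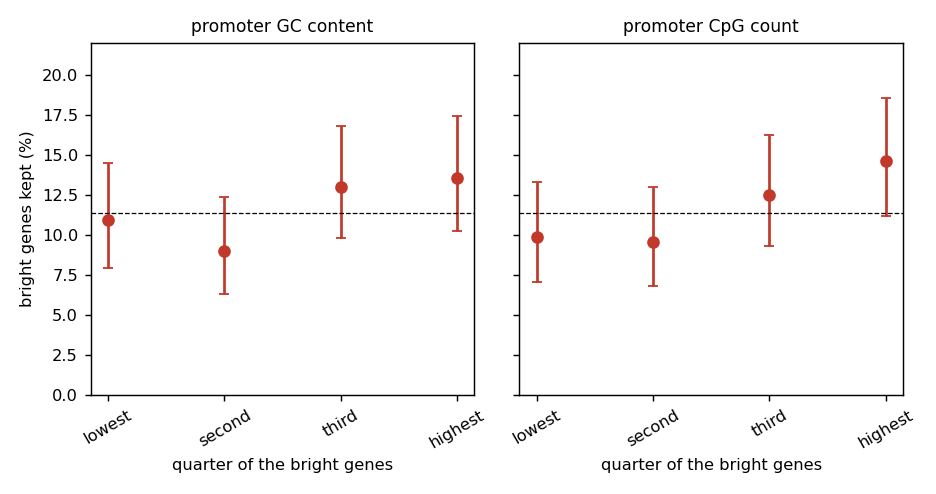
Percent of bright genes kept in 4 equal bins by promoter GC content and by promoter CpG count, lowest to highest, with 95% exact binomial intervals that cover counting error only. The dashed line is the 11.4% kept over all bright genes, and the points lie between 9.02% and 14.6%.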

How the data were processed

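Single-colour Affymetrix arrays of 6 samples were used, 3 labelled siPGC1alpha and 3 sicontrol, each assigned by its title. The authors deposited 1 value per probe set and sample, read here as log2 signal; the log2 scale and its base were inferred from the range of 1.96 to 14.33, and no label names them. No source used here gives their background correction, summarisation or normalization. Another deposited table held 6 columns that match no sample and were not used.

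The platform annotation gives 1 gene symbol to 17709 of 24320 probe sets, several to 0 and none to 6611. Where a gene had several probe sets (20 genes), its brightest by mean over the 6 arrays stood for it, which gave 17687 genes. Dim genes were not filtered out and there was no detection call. Precision is limited by the number of arrays.

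The comparisons used limma 3.58.1 under R 4.3.3 (lmFit, eBayes, two-sided, Benjamini-Hochberg over all genes, threshold 0.05), with 6 arrays and without siPGC1alpha replicate 1, after a trial on simulated data. Summaries used Python 3.11.15, pandas 2.3.3 and scipy 1.17.1. Promoter windows came from RefSeq (GRCh38.p14), matched by gene identifier. The members, the 26 gene lists of 1009 genes (48 kept and 498 bright genes are in one) and the settings were chosen with earlier results of these data known, and the 10 role groups and the families were drawn up after the values were seen. Named genes were the targeted gene, the 10 kept genes with the highest control mean, the 10 with the largest difference on replicate 1, the 10 other bright genes with the largest loss, the 5 on either side of the threshold, the 5 kept genes in each direction with the smallest p on the 5 arrays, and up to 4 kept and 4 other bright genes per list with the highest control mean; any other named gene was picked with its values known. Settings varied included the probe set summary, quantile normalization, median centring, the bright and kept thresholds, a dim-gene filter, eBayes options, the replicate block, the call threshold, the probe sets adjusted over, and each array left out.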

Additional observations from a re-analysis of the deposited data

Results flagged for a closer look

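In 4 classes of probe sets outside the genes compared, the median on siPGC1alpha replicate 1 was above the highest of the control arrays. For ERCC spike-ins it was 6.50, against 5.11, and for negative controls 3.79, against 3.44. For probe sets that carry no gene name it was 7.01, against 6.50, and for unmapped transcripts 7.09, against 6.62. The 2197 positive control probe sets, which are bright, had a median of 8.41 there, against 10.39 to 10.43 on the control arrays. Of the bright probe sets in these classes, 39 of 292 without a gene name (13.4%) and 7 of 34 unmapped transcripts (20.6%) were not below their control mean on that array, as were 250 of 1359 bright positive control probe sets (18.4%), beside 11.4% of bright genes. Whether these shifts bear on the choice of genes was not tested.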

How the results depend on the processing

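The number of kept genes depends on where the lines are drawn. It was 201 as reported, 373 after quantile normalization, 374 when percentiles on replicate 1 replaced signals, 82 among the top 5% of genes, 569 among the top 20%, 325 with a margin of 0.5 below the control mean and 112 with a margin of 0.5 above it. All 201 were among the 373, the 374, the 325 and the 569. Leaving out 1 control array gave 202 to 205, and without siPGC1alpha replicate 1 the rule cannot be applied. Quantile normalization and percentiles each kept 21.1% of all bright genes. Both kept 7 of 47 ribosomal protein genes, 11 of 25 translation factors and 1 of 33 oxidative phosphorylation genes. Quantile normalization also moved the 5 genes just outside the threshold above it. The median difference of the kept genes on replicates 2 and 3 was -0.00085 after quantile normalization, against 0.0099, and 0.010 to 0.019 with 1 array left out, the 0.019 being without sicontrol replicate 3; the cause was not tested. The difference of PPARGC1A without replicate 1 was -0.0053 when siPGC1alpha replicate 2 was also left out, and -0.0053 to 0.043 over the arrays left out. The count of kept genes called was 0 under all 18 alternatives with 5 arrays (lowest adjusted p 0.662) and all 19 with 6 arrays (lowest adjusted p 0.439), and 0 in each fit with an array left out. The share kept in the highest minus the lowest bin of promoter GC content was 2.62 percentage points, 3.16 to 3.18 with a control array left out, and 0.74 (by percentile) to 5.45 (top 20%) over the other settings. That for CpG count was 4.75, 5.01 to 5.04 with a control array left out, and 0.78 (margin of 0.5 above) to 6.06 (margin of 0.5 below) over the others. With the replicate number as a block, 0 kept genes were called, as without it. Same-numbered arrays had correlations of their deviations of -0.25, -0.18 and -0.086, and arrays of other numbers had -0.20 to 0.25. Against each control array, siPGC1alpha replicates 2 and 3 had the opposite sign to the deviating replicate 1. These correlations therefore cannot decide whether the numbers pair the samples. Features of protein sequences were planned and not run. Of the comparisons of other results with an alternative setting, 991 were labelled the same, 168 moved and 1 reversed. For a gene's difference on replicate 1, the same meant a shift smaller than its control SD. A gene near the threshold could therefore change side and still count as the same. For the motifs it meant a shift within the half-width of the difference in share. For single genes on replicates 2 and 3 it meant an unchanged sign. With 2 and 3 arrays a group, differences under about the half-width of 0.18 could not be resolved.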
